A study of Mus musculus with 15 samples.

Results

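The 10 genes described here encode the 4 receptors of the ErbB family and the 6 ligands that bind the EGF receptor (EGFR) best known for epithelial repair. The ligands are Egf, Tgfa, Hbegf, Areg, Ereg and Btc, and the receptors are Egfr, Erbb2, Erbb3 and Erbb4. They were chosen by symbol, and all 10 were found among 56748 genes in the count table. Poly(A) RNA was sequenced from whole organs of wild-type male C57Bl/6 mice, with 3 libraries in each of 5 groups. Kidneys came from mice aged 10 to 12 weeks that received sodium bicarbonate vehicle (WTK), folic acid at 200 mg/kg with control IgG (IgGK), or the same folic acid dose with a leptin-neutralizing antibody (LepK). Lungs came from mice aged 12 weeks that received intratracheal bleomycin at 1.5 units/kg with control IgG (IgGL) or with the leptin antibody (LepL). Folic acid injures the renal tubule and bleomycin injures the alveolar epithelium, and both injuries are followed by scarring. Per the study's methods, antibodies were given every other day from day 1, for 21 days in the kidney model and for 14 days in the lung model, at 10 mg/kg, which was the kidney dose the study went on with after a dose series. Kidneys were collected on day 28 and lungs on day 14. The labels name no antibody for WTK, so folic acid and IgG cannot be told apart in IgGK against WTK. A lung without bleomycin was not analysed here.

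ErbB receptors are tyrosine kinases of the cell surface that work in pairs. Ligand binding lets the receptors dimerise, and the dimer signals through RAS, MEK and ERK and through PI3 kinase and AKT. The ligands are made as membrane-anchored precursors and are released by proteases such as ADAM17. ERBB2 binds no known ligand and serves as a partner, whereas ERBB3 has little kinase activity of its own and binds neuregulins. In kidney, the EGF precursor is a product of the thick ascending limb and the distal convoluted tubule and passes into the urine. TGFα, HB-EGF and amphiregulin are known as ligands of the injured tubule, and amphiregulin and epiregulin as ligands of inflamed epithelium and stroma.

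Levels are given as normalized CPM, which are CPM scaled by TMM factors within an organ, CPM being reads of a gene divided by the size of its library and multiplied up to a common size. Levels of different genes are compared only as CPM per kilobase of gene length. Calls required a log2 fold change beyond ±0.5 together with an adjusted p under 0.05 in edgeR's quasi-likelihood test. Total counts were 25913969 to 32321976 in kidney libraries and 29974718 to 38924788 in lung libraries. TMM factors were 0.844 to 1.18 in kidney and 0.965 to 1.02 in lung. Proximal tubule markers summed to 5374 to 22680 CPM in kidney libraries and to 32.5 to 162.5 CPM in lung libraries. Alveolar type 2 markers summed to 6894 to 25249 CPM in lung libraries and to 1258 to 2706 CPM in kidney libraries, where Napsa was the largest part. Sftpc of that list averaged 5335 CPM in IgGL and 0.0384 CPM in IgGK. The mean correlation of a library with the others of its group was at least 0.980 across genes, lowest in IgGL. In whole-organ RNA, fewer cells of a type and less RNA per cell cannot be told apart.

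Areg, Ereg and Btc are neighbours on chromosome 5, together with Epgn, another ligand of the family. In the GRCm39 positions of the count table, Ereg spans 91222481 to 91241505 on the plus strand. Areg spans 91287458 to 91296291 on the plus strand, and Btc spans 91505120 to 91550853 on the minus strand. Egf lies on chromosome 3 (129471214 to 129548965, minus strand) and Egfr on chromosome 11 (16702203 to 16868158, plus strand). All 10 genes are annotated as protein coding. The count values cover each gene as a whole, so exons and transcript forms are not resolved.

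The promoters of the ligand that fell most in kidney, of a ligand nearly absent from vehicle kidneys and abundant in lung, and of the shared receptor are shown because their levels carry the comparisons. RefSeq promoters (GRCm38.p6, another build than the gene positions above) were held for 7 of the 10 genes. Each sequence is the 250 bases before the annotated start, 5′ to 3′ on the gene's strand. Capitals mark matches, on either strand, to 4 motifs. They were the TATA box, spelled TATAAA, the cAMP response element, spelled TGACGTCA, the AP-1 site, spelled TGANTCA with any base at N, and the GC box, spelled GGGCGG.
Egf, chr3:129755323-129755572, minus strand: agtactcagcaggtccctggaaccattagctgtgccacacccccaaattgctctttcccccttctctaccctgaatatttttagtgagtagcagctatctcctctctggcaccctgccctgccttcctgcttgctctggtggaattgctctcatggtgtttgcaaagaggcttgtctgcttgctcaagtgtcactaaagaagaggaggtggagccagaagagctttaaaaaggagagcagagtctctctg
Areg, chr5:91139349-91139598, plus strand: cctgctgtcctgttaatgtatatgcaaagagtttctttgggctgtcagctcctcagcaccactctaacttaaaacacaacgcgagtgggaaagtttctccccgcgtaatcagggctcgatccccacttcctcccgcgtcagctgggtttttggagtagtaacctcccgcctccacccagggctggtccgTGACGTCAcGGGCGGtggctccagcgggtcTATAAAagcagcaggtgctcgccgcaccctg
Egfr, chr11:16751953-16752202, plus strand: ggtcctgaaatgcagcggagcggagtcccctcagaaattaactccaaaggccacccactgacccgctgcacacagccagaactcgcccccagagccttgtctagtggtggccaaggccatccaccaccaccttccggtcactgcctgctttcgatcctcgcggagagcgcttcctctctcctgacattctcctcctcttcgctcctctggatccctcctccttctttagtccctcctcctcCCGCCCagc

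The Areg window held a cAMP response element beginning 61 bases before the start, a GC box at 52 bases and a TATA box at 31 bases. The Egfr window held 1 GC box, and the Egf window held none of these motifs. None of the 7 genes held an AP-1 match in this window. Over all 32851 promoters of the same length, 12.4% held a TATA box, 1.55% a cAMP response element, 6.75% an AP-1 match and 32.7% a GC box. A match is a description of letters, and no binding was measured.

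**Figure D1:**
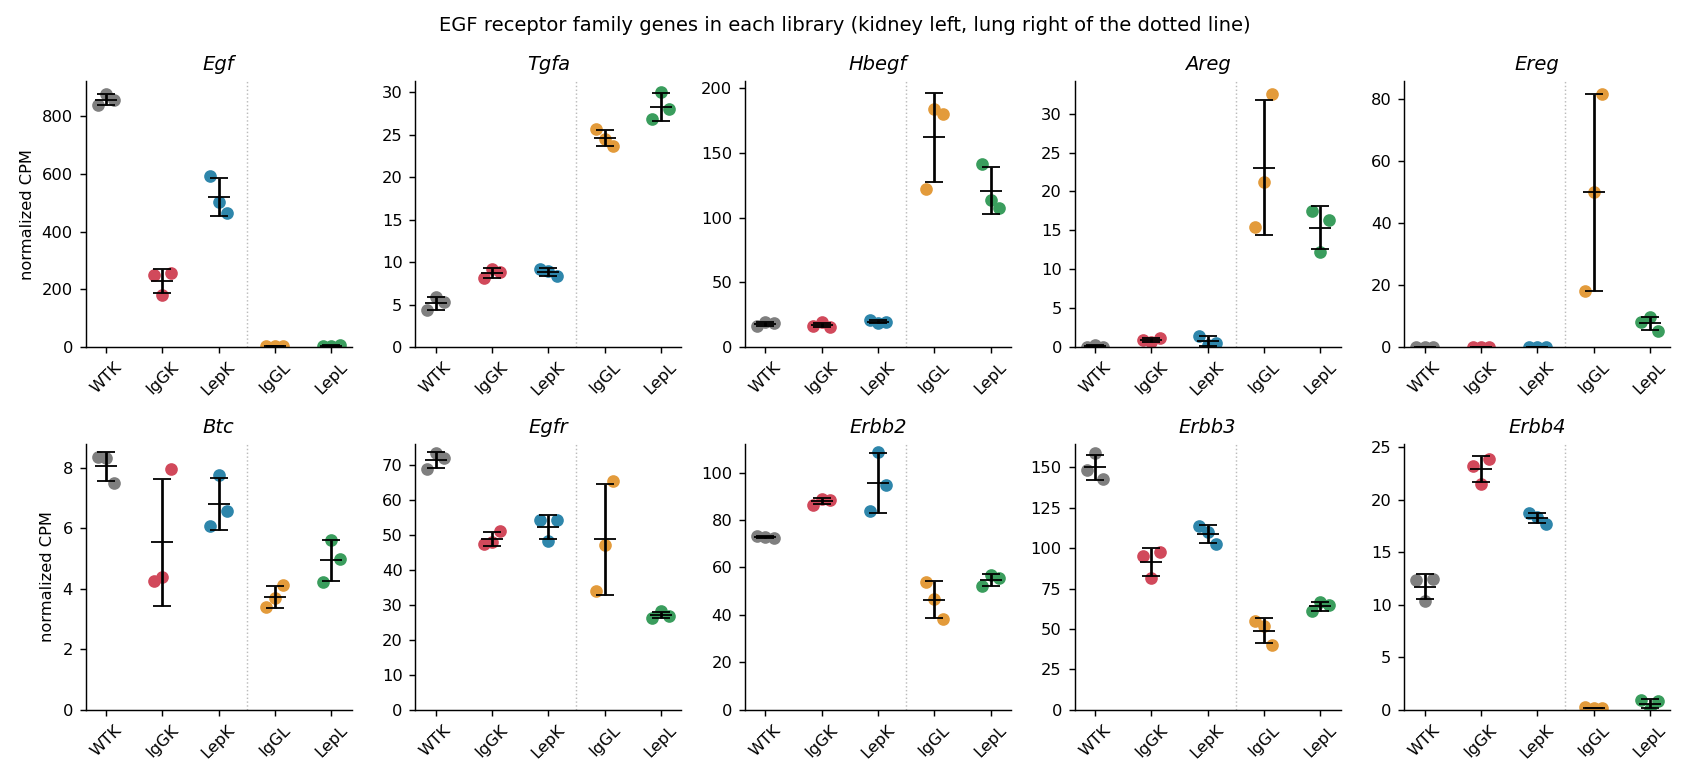
Normalized CPM (linear axes from 0) of the 6 ligands and 4 receptors in each of the 15 libraries, with points for libraries and black bars for the mean ± SD of 3 libraries. Egf was highest in WTK, lowest of the kidney groups in IgGK and between them in LepK, whereas Ereg and Areg were near 0 in kidney and were detected in every lung library.

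In kidneys given vehicle, Egf was the most abundant of the 10 genes per kilobase, at 76.1 ± 1.76 CPM per kb (SD, n = 3). It was followed by Erbb3 at 24.9 ± 1.32, Erbb2 at 13.98 ± 0.105, Egfr at 6.31 ± 0.197, Hbegf at 3.74 ± 0.327 and Btc at 1.78 ± 0.107 CPM per kb. Erbb4 at 0.949 ± 0.0965 and Tgfa at 0.797 ± 0.118 CPM per kb overlapped and were not ordered. Areg at 0.0848 ± 0.09995 and Ereg at 0.0116 ± 0.0202 CPM per kb were close to the detection limit and overlapped.

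The lung had another order. In IgGL, Hbegf was at 33.6 ± 7.12, Areg at 19.0 ± 7.18 and Ereg at 12.1 ± 7.69 CPM per kb (SD, n = 3), and neighbours in this order overlapped. Erbb2 at 8.89 ± 1.49 and Erbb3 at 8.15 ± 1.32 CPM per kb overlapped as well. Egf was at 0.374 ± 0.113 CPM per kb, and Erbb4 at 0.0141 ± 0.00362 CPM per kb was the lowest of the 10. The organs were normalized apart and differ in injury and day, so these levels are set side by side without a test.

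The comparison of IgGK with WTK asks how the receptors and their ligands stood after folic acid injury. Egf fell furthest of the members tested, to a level 3.73-fold lower, while Tgfa and Erbb4 rose and Egfr and Erbb3 fell. Of 9 members tested, 3 were called higher (all genes: 21.7% called up), among them Areg, which had 8 reads in all of WTK and was tested only because it was higher in the other groups. Another 3 fell (all genes: 15.6% called down). The groups did not overlap for 7 of the 9, against 62.6% of all genes tested, so counts of this kind were common in the whole table. The median log2 fold change of the 9 was −0.08, beside 0.04 over all genes tested.

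Egf encodes the precursor of epidermal growth factor. Libraries 1 to 3 of WTK held 839, 879 and 856 normalized CPM, and those of IgGK 249.96, 181 and 258. In LepK it was 592, 503 and 466. The highest IgGK library stood below the lowest LepK library, and the highest LepK library stood below the lowest WTK library. Egf fell by 1.90 on the log2 scale in IgGK against WTK (SE 0.126, edgeR adjusted p = 1.67e-07). It rose in LepK against IgGK by a log2 fold change of 1.18 (SE 0.124, edgeR adjusted p = 0.000149), or 2.26-fold. It was still 1.65-fold lower in LepK than in WTK (log2 fold change −0.72, SE 0.123, edgeR adjusted p = 0.000619).

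Other transcripts of the segments known to make Egf changed unequally. Of 10 markers of the thick ascending limb and distal convoluted tubule, 3 fell in IgGK against WTK and 1 rose. Pvalb, the calcium-binding parvalbumin of the early distal convoluted tubule, fell by 2.54 (SE 0.164) on the log2 scale. Slc12a3, the thiazide-sensitive sodium chloride cotransporter, fell by 1.03 (SE 0.0951), and Cldn10, a claudin of the thick limb, fell by 0.62 (SE 0.0991). Cldn16, another thick limb claudin, rose by 0.75 (SE 0.179). Umod, which encodes uromodulin, had a log2 fold change of −0.18 (SE 0.0849, edgeR adjusted p = 0.0858). Slc12a1, the furosemide-sensitive cotransporter of the thick limb, had −0.11 (SE 0.0779, edgeR adjusted p = 0.257), and neither was called.

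In LepK against IgGK 4 of these 10 markers rose and none fell. They were Pvalb (log2 fold change 1.90), Slc12a3 (0.64), Calb1 (0.62) and Slc12a1 (0.55). Egf in log2 CPM minus the mean log2 CPM of the 10 markers was 2.98 ± 0.0167 for WTK, 1.36 ± 0.219 for IgGK and 2.09 ± 0.152 for LepK (SD, n = 3). The groups did not overlap in any of the 3 comparisons. The exact permutation test (two-sided) gave p = 0.1 for each, the smallest that 3 against 3 libraries allow. Against the 5 distal convoluted tubule markers alone the values were 3.46 ± 0.113, 2.10 ± 0.252 and 2.68 ± 0.128.

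Proximal tubule genes moved further in the median, and in the direction of Egf. All 8 markers of the proximal tubule fell in IgGK against WTK, by a median of 1.56 on the log2 scale (median log2 fold change −1.56, lowest −2.76 for Slc5a2, highest −1.04 for Cubn). In LepK against IgGK 6 of the 8 rose, and the highest log2 fold change was 1.11 (Miox), below the 1.18 of Egf. Their summed level was 21254 to 22680 CPM in WTK, 5374 to 7085 CPM in IgGK and 9892 to 13011 CPM in LepK. Egf minus their mean log2 CPM was −0.87 ± 0.0582 for WTK, −1.05 ± 0.133 for IgGK and −0.59 ± 0.123 for LepK (SD, n = 3), a comparison added after the data were seen. The sign of Egf relative to markers in LepK against WTK thus turned with the list, from −0.89 (distal) to 0.27 (proximal). The part of segment loss in the level of Egf was not tested.

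**Figure D2:**
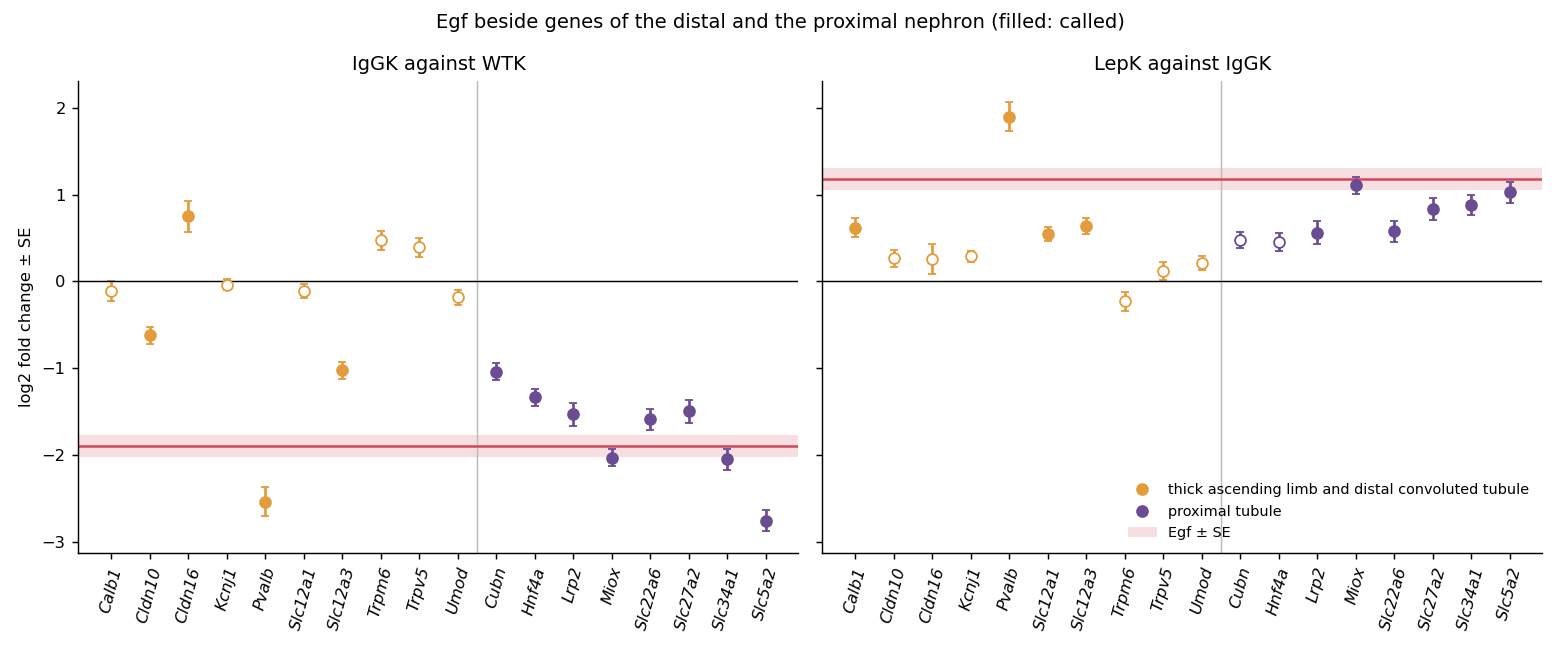
Log2 fold change ± SE (edgeR) of 10 thick ascending limb and distal convoluted tubule genes (orange) and 8 proximal tubule genes (purple) in 2 kidney comparisons, with Egf as a red line and band. In IgGK against WTK, Egf at −1.90 lay below 9 of the 10 distal genes, all but Pvalb, and within the range of the proximal genes. In LepK against IgGK, Egf at 1.18 lay above all 8 proximal genes and above all distal genes but Pvalb.

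The genes whose profile over the 9 kidney libraries lay closest to Egf were named by the root mean square difference of gene-centred log2 CPM, among 15611 genes with a symbol and a mean of at least 1 CPM. The closest was G6pc (0.0512), the catalytic subunit of glucose-6-phosphatase. It was at 588 ± 23.1 CPM for WTK, 158 ± 23.8 for IgGK and 353 ± 34.0 for LepK (SD, n = 3). Next came the long noncoding RNA BC024386 (0.0709) and F13b (0.0935), which encodes the B subunit of coagulation factor XIII. The SD of Egf itself over these libraries was 0.855 on the same scale, and the 3 genes share these libraries and their scaling with it.

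Areg encodes amphiregulin, a low-affinity ligand of EGFR. It was nearly absent from vehicle kidneys, with 0, 6 and 2 reads in WTK, and had 29, 21 and 40 reads in IgGK and 44, 8 and 14 in LepK. In normalized CPM these were 0 to 0.237 in WTK, 0.600 to 1.16 in IgGK and 0.268 to 1.45 in LepK. IgGK and LepK stood above WTK without overlap, and they overlapped each other. Areg passed the filter on low counts only through the groups in which it was higher, so it had to differ from WTK to be tested, and its calls are given as a description of few reads. The fitted log2 fold change was 3.07 (SE 0.864, edgeR adjusted p = 0.00921) in IgGK against WTK, and 2.54 to 4.42 when 1 library was left out. In LepK against WTK it was 2.80 (SE 0.872, edgeR adjusted p = 0.0227), and 1.88 to 4.15 when 1 library was left out. The latter call was lost without WTK replicate 1 (2.26, edgeR adjusted p = 0.0695), WTK replicate 3 (2.59, edgeR adjusted p = 0.0818) or LepK replicate 1 (1.88, edgeR adjusted p = 0.126).

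Tgfa encodes TGFα, a high-affinity EGFR ligand made in the injured tubule. Its normalized CPM was 4.36, 5.88 and 5.27 in WTK, 8.11, 9.20 and 8.82 in IgGK, and 9.22, 8.95 and 8.38 in LepK. Each library of the injured kidneys stood above each WTK library. The log2 fold change was 0.75 (SE 0.150, edgeR adjusted p = 0.000974) in IgGK against WTK and 0.77 (SE 0.151, edgeR adjusted p = 0.00151) in LepK against WTK. In LepK against IgGK it was 0.02, with a 95% interval from −0.29 to 0.34.

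Hbegf, which encodes heparin-binding EGF, lay at 15.8 to 21.1 CPM in all 9 kidney libraries. Its log2 fold change in IgGK against WTK was −0.08 (95% interval −0.31 to 0.15), and it became 0.36 when libraries were scaled by their size alone. Btc, which encodes betacellulin, was at 8.35, 8.33 and 7.50 CPM in WTK and 4.25, 4.40 and 7.98 in IgGK. IgGK replicate 3 lay within the WTK range, and the log2 fold change of −0.54 (SE 0.228) was not called in edgeR (adjusted p = 0.0651), whereas DESeq2 called it lower (adjusted p = 0.0398). Without IgGK replicate 3, Btc was called lower in IgGK than in WTK (log2 fold change −0.89, edgeR adjusted p = 0.00187) and higher in LepK than in IgGK (0.66, edgeR adjusted p = 0.0337). Ereg, which encodes epiregulin, had 4 reads in all of WTK, 10 in IgGK and 5 in LepK, and was not tested in kidney.

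The receptors moved in different directions in the injured kidney. Egfr was at 69.0, 73.3 and 72.1 CPM in WTK, 47.4, 48.1 and 51.0 in IgGK, and 54.4, 48.4 and 54.3 in LepK. All injured kidneys stood below the vehicle kidneys. Egfr fell by 0.55 on the log2 scale in IgGK against WTK (SE 0.0674, edgeR adjusted p = 1.94e-05), just past the fold threshold. In LepK against WTK the log2 fold change was −0.45 (SE 0.0675, edgeR adjusted p = 0.000266), below that threshold. LepK against IgGK gave 0.10, with a 95% interval from −0.05 to 0.25.

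Erbb3, the neuregulin receptor and the most abundant of the 4 per kilobase in vehicle kidneys, was at 148, 159 and 143 CPM in WTK, 95.3, 81.6 and 97.6 in IgGK, and 114, 110 and 103 in LepK. The 3 groups did not overlap. It fell by 0.71 (SE 0.0790, edgeR adjusted p = 8.09e-06) on the log2 scale in IgGK against WTK. The log2 fold change of 0.25 (SE 0.0788, edgeR adjusted p = 0.0416) in LepK against IgGK was below the fold threshold. Erbb4, another neuregulin receptor, took the opposite course, at 12.3, 10.3 and 12.5 CPM in WTK, 23.3, 21.5 and 23.9 in IgGK, and 18.7, 18.4 and 17.7 in LepK. It rose by 0.97 (SE 0.0977, edgeR adjusted p = 3.78e-06) in IgGK against WTK and by 0.64 (SE 0.0983, edgeR adjusted p = 0.000309) in LepK against WTK, without overlap of the groups. In LepK against IgGK the log2 fold change was −0.33 (SE 0.0951, edgeR adjusted p = 0.0294), again below the fold threshold.

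Erbb2, the receptor without a ligand, was at 72.3 to 73.4 CPM in WTK, 86.5 to 88.8 in IgGK and 83.6 to 108.6 in LepK. The change of 0.27 (log2) from WTK to IgGK (SE 0.0829, edgeR adjusted p = 0.0146) was below the fold threshold, although the groups did not overlap. When libraries were scaled by their size alone, the median of all genes in IgGK against WTK moved from 0.04 to 0.48 on the log2 scale. Under that scaling Egfr had −0.11 (edgeR adjusted p = 0.188), Erbb3 had −0.27 and neither was called, whereas Erbb2 was called at 0.71. Changes in kidney are therefore given relative to the median gene. Under that scaling Egf was still called lower in IgGK than in WTK (−1.46) and higher in LepK than in IgGK (0.998). Its value for LepK against WTK was −0.46, below the fold threshold.

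The genes closest in kidney profile to the receptors were Creb3l2, Ap2a2 and Zfp871 for Egfr (root mean square difference 0.0296 to 0.0411, SD of Egfr 0.260). They were Timm17a, Aph1c and Eml5 for Erbb3 (0.0263 to 0.0424, SD 0.327) and Agrn, Chst15 and Swap70 for Erbb4 (0.0935 to 0.0984, SD 0.436). For the ligands they were Hoxb8, Zfp28 and Zfp182 for Tgfa (0.0951 to 0.106, SD 0.405). Zap70, Gm2237 and Bub1 lay nearest to Areg, at 0.711 to 0.766, with an SD of 1.98 for Areg. That was further than the nearest genes of the other members so compared. Only members called in a kidney comparison were compared in this way.

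The comparison of LepK with IgGK asks what leptin neutralization changed in the injured kidney. Of 9 members tested, 1 rose, which was Egf (all genes: 4.38% called up), and 0 fell (all genes: 5.99% called down). For Egf, Erbb3 and Erbb4 the groups did not overlap, which is 3 of 9, against 37.4% of all genes tested. At an unadjusted p under 0.05 in edgeR, 2 members were higher (Egf and Erbb3) and 1 was lower (Erbb4), and DESeq2 called 0 lower. Over all genes tested, 6441 of 19593 had such a p in either direction, and DESeq2 called 1383 lower. When libraries were scaled by their size alone, Erbb4 was called lower (−0.51). The median log2 fold change of the members was 0.12, beside −0.01 over all genes tested. In LepK against WTK, 3 members were called higher (Tgfa, Erbb4 and, on few reads and with the limits given above, Areg, with 15.2% of all genes) and 1 lower (Egf, with 7.30% of all genes), and 7 of 9 did not overlap (all genes: 50.2%). The 3 kidney comparisons share their libraries pairwise and are not independent.

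Markers of other cells moved with these genes in kidney. The 8 injured tubule markers summed to 195 to 210.0 CPM in WTK, 928 to 976 in IgGK and 499 to 657 in LepK, and 7 of 8 rose in IgGK against WTK. Macrophage markers summed to 183 to 211 CPM in WTK, 1650 to 2101 in IgGK and 587 to 874 in LepK. Fibroblast markers summed to 186 to 243, 1423 to 1619 and 508 to 847 CPM in the same order. None of the genes in these 3 lists was at 0 in any kidney library. In IgGK against WTK all 6 T cell markers and all 4 neutrophil markers tested rose. Of 6 collecting duct markers 0 rose and 2 fell, and of 5 endothelial markers 0 rose and 2 fell. The part of such cells in the receptor and ligand levels was not tested.

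**Figure D3:**
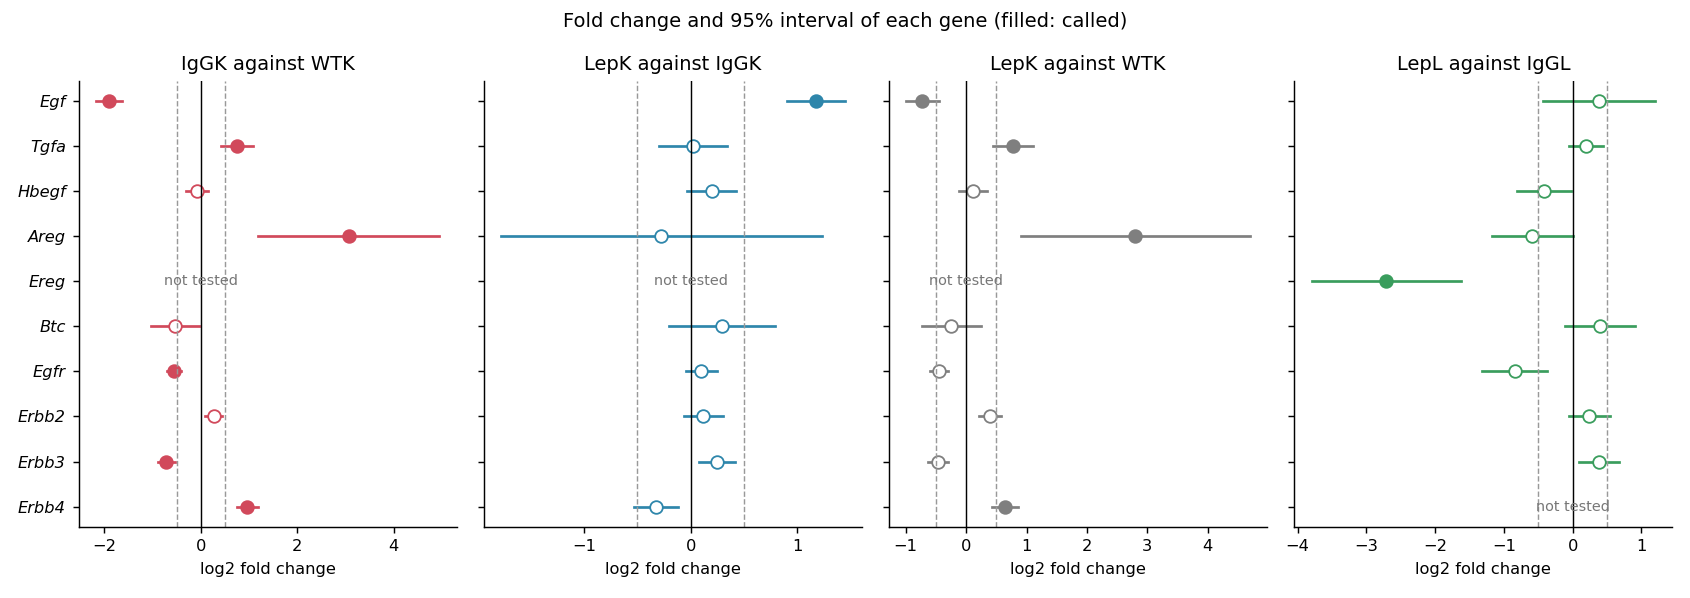
Log2 fold change with its 95% interval (edgeR) of each of the 10 genes in the 4 comparisons, with filled points for called genes and dashed lines at ±0.5. Egf stood at −1.90 in IgGK against WTK and at 1.18 in LepK against IgGK, Areg at 3.07 had the widest interval in IgGK against WTK (1.20 to 4.95), and Ereg at −2.71 was the called gene in lung.

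The comparison of LepL with IgGL asks the same question for the lung after bleomycin. Ereg was the gene of the 10 that fell, while Egfr, Areg and Hbegf had lower means that were not called. Of 9 members tested, 0 rose (all genes: 1.78% called up) and 1 fell (all genes: 2.36% called down). At an unadjusted p under 0.05 in edgeR, 1 member was higher (Erbb3) and 3 were lower (Ereg, Egfr and Hbegf), and DESeq2 called 0 members higher and 2 lower. Such a p was held by 5357 of 19617 genes tested, in either direction. Over all genes tested, DESeq2 called 1236 higher and 1102 lower, against 349 and 463 in edgeR. The groups did not overlap for 5 of 9, against 33.3% of all genes tested.

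Ereg was at 18.1, 49.9 and 81.5 CPM in IgGL libraries 1 to 3 and at 8.03, 9.55 and 5.32 CPM in LepL. Each LepL library stood below each IgGL library, and the IgGL libraries spread widely among themselves. Ereg fell by 2.71 on the log2 scale (SE 0.480, edgeR adjusted p = 0.0330), a level 6.54-fold lower. The call was kept without IgGL replicate 1 (edgeR adjusted p = 0.000451). It was lost without any other lung library, with log2 fold changes from −2.90 to −2.16 and edgeR adjusted p from 0.0548 to 0.178.

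Egfr was at 33.9, 47.0 and 65.5 CPM in IgGL and at 26.4, 28.1 and 26.9 CPM in LepL. The groups did not overlap, and the log2 fold change of −0.84 (SE 0.208, edgeR adjusted p = 0.0543) missed the threshold. DESeq2 gave an adjusted p of 0.00358 for the same change. Areg was at 15.4, 21.3 and 32.6 CPM in IgGL and 17.4, 12.3 and 16.3 in LepL, with overlap and a log2 fold change of −0.59 (SE 0.262, edgeR adjusted p = 0.187). Hbegf was at 123, 184 and 180.0 CPM in IgGL and 142, 114 and 107 in LepL, also with overlap (log2 fold change −0.42, SE 0.173, edgeR adjusted p = 0.157). IgGL replicate 1 was the lowest of its group for Ereg, Egfr, Areg and Hbegf. Without it 4 members were called lower in LepL, namely Ereg, Egfr (log2 fold change −1.05), Areg (−0.81) and Hbegf (−0.59). Calls rose over the whole table in that fit, to 1937 higher and 1602 lower of 20435 genes tested. With all lung libraries they were 349 and 463 of 19617.

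The other members lay the other way in lung. Erbb3 was at 55.0, 52.0 and 40.0 CPM in IgGL and 61.0, 66.5 and 64.7 in LepL, without overlap (log2 fold change 0.39, SE 0.129, edgeR adjusted p = 0.101). Tgfa at 23.7 to 25.7 CPM in IgGL and 26.8 to 30.0 in LepL, and Btc at 3.41 to 4.12 and 4.24 to 5.61, did not overlap either, with log2 fold changes of 0.20 and 0.40 that were not called. Erbb2 had 0.24 (95% interval −0.06 to 0.54). Egf had 105 to 197 reads in IgGL and 99 to 316 in LepL (log2 fold change 0.38, 95% interval −0.43 to 1.20). Noncoding genes that overlap parts of Egf on the other strand held at most 66 reads in any of the 15 libraries, kidney and lung together. The libraries do not mark strand, so reads from the overlapping stretches cannot be told apart. Erbb4 had 8, 6 and 4 reads in IgGL and 28, 2 and 33 in LepL, and was not tested.

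Markers of other cells differed between the lung groups as well. Neutrophil markers summed to 149 to 377 CPM in IgGL and 56.7 to 88.7 in LepL, and 4 of 5 fell. Fibroblast markers summed to 7318 to 8421 CPM in IgGL and 3243 to 4524 in LepL, and 5 of 8 fell. Alveolar type 2 markers summed to 6894 to 12923 CPM in IgGL and 18569 to 25249 in LepL, and 3 of 7 rose. Macrophage markers summed to 3759 to 6650 CPM in IgGL and 7988 to 8241 in LepL, although 2 of 8 fell and none rose. Lyz2 carried the larger sum, averaging 3644 CPM in IgGL and 7169 CPM in LepL. Every other macrophage marker averaged fewer CPM under the leptin antibody, and the median log2 fold change of the list was −0.67. None of the genes in these 4 lists was at 0 in a lung library, and their part in the levels of Ereg and Egfr was not tested.

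Whether the antibody acted alike on the members in both organs was tested as a difference of effects, kidney less lung, in an edgeR model of the 12 injured-organ libraries. Egfr was the member past the threshold (all genes: 7.12% called), with a difference of 0.97 on the log2 scale (SE 0.242, edgeR adjusted p = 0.0327). Its antibody effect was 0.10 in kidney and −0.84 in lung. Hbegf had a difference of 0.65 (SE 0.218, edgeR adjusted p = 0.0848) and Egf 0.81 (SE 0.380, edgeR adjusted p = 0.199). Ereg, with 10 reads in all of IgGK and 5 in LepK, entered this model only through the lung libraries. Its difference is not given. Erbb4, with 18 reads in all of IgGL and 63 in LepL, entered this model only through the kidney libraries, and its difference is not given. The call for Egfr was kept without LepK replicate 2, IgGL replicate 1 or IgGL replicate 3 (edgeR adjusted p = 0.0430, 0.000948 and 0.0386). It was lost without any of the other 9 libraries, with differences of 0.91 to 1.01 and edgeR adjusted p from 0.0600 to 0.0821. The organs also differ in injury, day and length of treatment, which cannot be told apart here.

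The ligands' relative abundance per kilobase described the same libraries as a mixture. Egf made up 92.2% ± 0.416 of the 6 ligands for WTK, 74.4% ± 3.97 for IgGK and 85.9% ± 0.586 for LepK (SD, n = 3). The kidney groups did not overlap, and each exact permutation test (two-sided) gave p = 0.1, the smallest possible. Hbegf made up 4.53% ± 0.292, 13.3% ± 3.55 and 7.59% ± 0.519 of the ligands in the same groups, and Tgfa 0.964% ± 0.117, 5.01% ± 1.005 and 2.55% ± 0.188. Each share is part of a sum in which Egf was the largest term in kidney, so it does not by itself show a change of level. In the same order, Hbegf averaged 18.1, 17.1 and 19.6 normalized CPM, and Tgfa averaged 5.17, 8.71 and 8.85. In lung Egf made up 0.601% ± 0.362 in IgGL and 1.10% ± 0.538 in LepL. There Hbegf was the largest part, at 49.3% ± 6.32 and 54.9% ± 3.05, followed by Areg at 27.0% ± 3.05 and 27.7% ± 3.69. Ereg made up 16.0% ± 6.55 of the ligands in IgGL and 4.09% ± 1.27 in LepL, without overlap.

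Among the receptors of the kidney, Erbb3 made up 54.0% ± 1.28 for WTK, 39.7% ± 2.30 for IgGK and 42.6% ± 2.84 for LepK. Erbb2 made up 30.3% ± 0.852, 44.2% ± 2.09 and 43.0% ± 3.86, and Erbb4 2.06% ± 0.264, 4.85% ± 0.0719 and 3.48% ± 0.180. Egfr made up 13.7% ± 0.424, 11.3% ± 0.373 and 10.9% ± 1.19, with overlap between IgGK and LepK. In lung the share of Egfr was 20.5% ± 8.04 in IgGL and 10.2% ± 0.188 in LepL, without overlap (exact permutation test, two-sided, p = 0.1, the smallest possible).

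**Figure D4:**
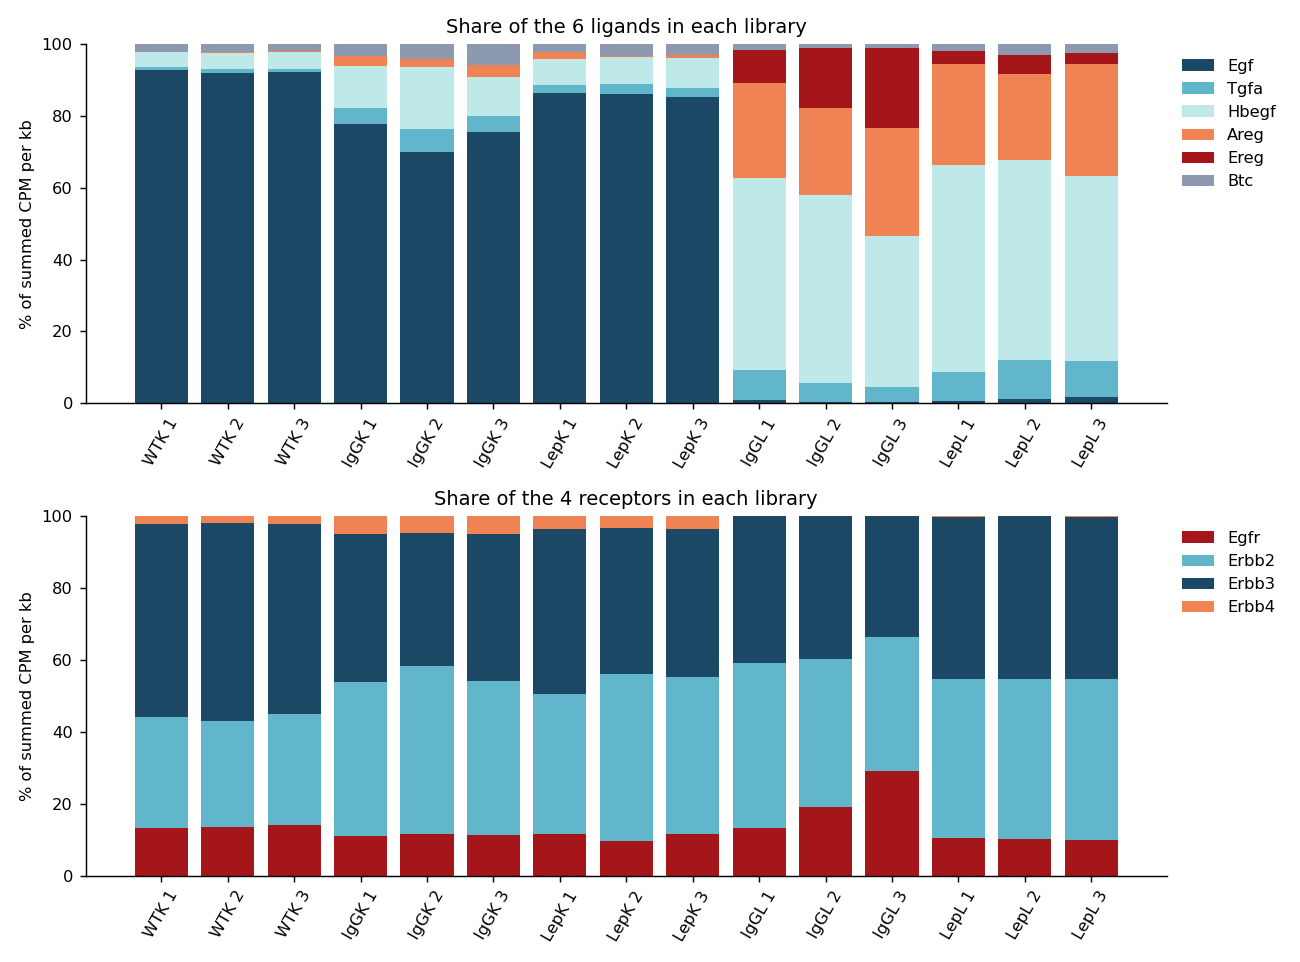
Stacked bars of the share of each ligand (top) and each receptor (bottom) in the summed CPM per kilobase of its class, 1 bar per library. Egf fills 70.0% to 92.7% of the ligand bar in kidney libraries and at most 1.64% in lung libraries, and the Egfr part of the receptor bar is tallest in IgGL replicate 3, at 29.2%.

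The genes around the receptors were described with a list of 57, of which 54 were tested in kidney and 55 in lung. In IgGK against WTK 13 rose (all genes: 21.7% called up) and 8 fell (all genes: 15.6% called down), shares close to those of all genes, with a median log2 fold change of 0.20 beside 0.04 over all genes. Scaled by library size alone, 31 rose and 2 fell, beside 7803 up and 1178 down over all genes tested. Of 4 shedding genes 2 rose, namely Adam17 (log2 fold change 0.70), the protease that releases most EGFR ligands, and Rhbdf2 (1.09), its iRhom partner. Of 12 ERK response genes tested 7 rose and 2 fell. Egr1, an immediate early transcription factor, rose by 2.18 (SE 0.274), Etv4 by 1.32 (SE 0.285), Epha2 by 1.24 (SE 0.141) and Phlda1 by 1.20 (SE 0.183). Ccnd1, which encodes cyclin D1, fell by 1.95 (SE 0.107) and Etv5, the sister of Etv4, fell by 0.79 (SE 0.0996).

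The list also held feedback inhibitors of the pathway. Of 15 tested in edgeR, 0 rose and 3 fell, and at an unadjusted p under 0.05 there were 6 higher and 5 lower. Over all genes tested, 11366 of 19593 had such a p, in either direction. Errfi1, which encodes the EGFR inhibitor MIG6, was at 673 CPM for WTK, 208 for IgGK and 322 for LepK. It fell by 1.69 (SE 0.0705, edgeR adjusted p = 1.13e-08) in IgGK against WTK and rose by 0.63 (SE 0.0691, edgeR adjusted p = 0.000180) in LepK against IgGK. Spry4, a Sprouty inhibitor of RAS signalling, fell by 0.65 (SE 0.160). In the signal relay list 3 of 20 rose and 3 fell. Nrg1, which encodes the neuregulin that binds ERBB3 and ERBB4, rose by 1.31 (SE 0.158) from 6.75 to 16.7 CPM.

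In LepK against IgGK 2 of the 54 rose (all genes: 4.38% called up), Errfi1 and Ccnd1 (log2 fold change 0.53, SE 0.105), and 0 fell (all genes: 5.99% called down), with a median of −0.13 beside −0.01 over all genes. At an unadjusted p under 0.05 in edgeR, 4 were higher and 20 lower, and DESeq2 called 2 lower. Over all genes tested, 6441 of 19593 had such a p in either direction, and DESeq2 called 1383 lower. Scaled by library size alone, 0 rose and 13 fell, beside 408 up and 2185 down over all genes tested. In LepK against WTK, by library size alone, 16 rose and 3 fell, beside 4782 up and 512 down over all genes tested. In the main fit of that comparison 8 rose (all genes: 15.2%) and 6 fell (all genes: 7.30%). The 5 largest rises were Egr1 (1.57), Etv4 (1.06), Myc (0.90), Epha2 (0.88) and Nrg1 (0.82). The largest falls were those of Ccnd1 (−1.42), Errfi1 (−1.06), Etv5 (−0.80) and Dusp4 (−0.72). In LepL against IgGL 1 of 55 rose (all genes: 1.78%) and 1 fell (all genes: 2.36%). Etv5 rose by 1.08 (SE 0.216, edgeR adjusted p = 0.0386), from 70.0 to 148 CPM, and Myc fell by 1.12 (SE 0.200, edgeR adjusted p = 0.0337), from 47.7 to 22.0 CPM. Etv5 is also a transcript of alveolar type 2 cells, of whose 7 markers 3 were called higher in LepL. The part of these cells in the level of Etv5 was not tested. Without IgGL replicate 1, 1 of the list rose and 8 fell, beside 1937 up and 1602 down of 20435 genes tested. Without any other lung library 0 of the list rose and 0 fell, beside at most 18 up and 4 down over all genes.

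**Figure D5:**
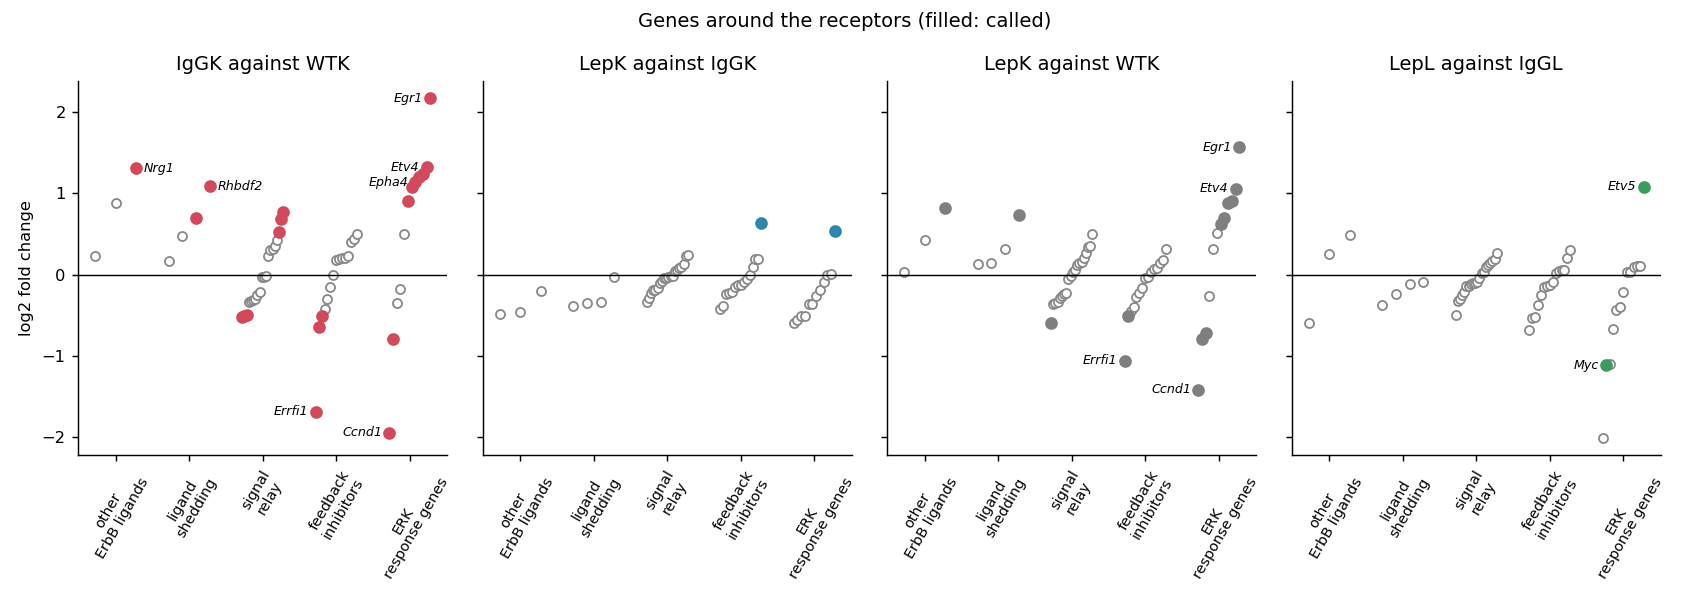
Log2 fold change (edgeR) of the genes around the receptors in the 4 comparisons, grouped by role, with filled points for called genes and names for part of those past ±1. In IgGK against WTK the ERK response genes reached from −1.95 (Ccnd1) to 2.18 (Egr1), and in LepK against IgGK 2 points were called.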

How the data were processed

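The authors deposited a table of raw counts per gene, made from non-directional poly(A) libraries. The submitters' processing notes name the builds GRCm39 and mm39 and DESeq2. The aligner and counter are not given in the sources used here. Deposited counts were tested with edgeR 4.0.16 (R 4.3.3): TMM scaling, filterByExpr (minimum count 10, minimum total 15), and the quasi-likelihood test with Benjamini-Hochberg adjustment over all genes, in 1 fit of 9 kidney libraries, 1 of 6 lung libraries, and 1 of the 12 libraries from injured organs for the organ difference. The thresholds follow the study's methods. Derived values were compared by exact permutation tests. Scripts were tested on simulated data. Alternatives covered scaling, filters, DESeq2 1.42.0, glmTreat, a replicate block and leaving out each library. The genes named around the receptors were the 5 largest called changes per direction with a mean of at least 1 CPM. One gene that this rule names is not reported here. The members and gene lists were chosen with earlier results of these data known. The labels do not say that libraries of a group came from separate mice, so p-values measure the spread between these libraries.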

Additional observations from a re-analysis of the deposited data

Results flagged for a closer look

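Egfr was the member whose antibody effect differed between the organs by a test of the difference itself. The kidney effect minus the lung effect was 0.97 on the log2 scale (edgeR adjusted p = 0.0327), with 0.10 in kidney and −0.84 in lung. Every LepL library stood below every IgGL library, whereas LepK and IgGK overlapped. The call was lost in 9 of the 12 fits that left out 1 library. Organ, injury and day differ together and cannot be told apart. Groups of 3 libraries were too small for a test of single outlying libraries.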

How the results depend on the processing

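Egf was called in all 9 fits that left out 1 kidney library, with −1.99 to −1.75 for IgGK against WTK and 1.04 to 1.28 for LepK against IgGK. With scaling by library size alone, which moved the median of all genes to 0.48, −0.19 and 0.29 in IgGK against WTK, LepK against IgGK and LepK against WTK, members called lower became 1, 1 and 0. Genes around the receptors became 31, 0 and 16 higher and 2, 13 and 3 lower, and the organ difference called 0 members. Over all genes tested, the main fit called 4253, 858 and 2984 higher and 3057, 1174 and 1431 lower. Scaling by library size alone called 7803, 408 and 4782 higher and 1178, 2185 and 512 lower. Signs turned there for Hbegf in IgGK against WTK (0.36), for Tgfa (−0.16), Egfr (−0.081) and Erbb2 (−0.055) in LepK against IgGK, and for Btc in LepK against WTK (0.023). In IgGK against WTK the genes around the receptors called lower numbered 4 with upper-quartile scaling, 5 with a mean of at least 1 CPM, 5 with only the 2 groups and 3 with glmTreat. These alternatives called 2800, 2798, 2970 and 2019 of all genes tested lower. In LepK against IgGK the genes around the receptors called lower numbered 2 with DESeq2, 2 without a filter and 1 with only the 2 groups. There glmTreat called 0 of them higher. Over all genes tested, the first 3 of these alternatives called 1383, 1463 and 1217 lower, and glmTreat called 95 higher. In lung, members called lower numbered 2 with DESeq2, 3 without a filter and 0 with glmTreat, and genes around the receptors called lower numbered 7, 8 and 0, with 0 higher by glmTreat. Over all genes tested in lung, these alternatives called 1102, 1173 and 0 lower, against 463 in the main fit. Leaving out 1 lung library called 0 to 1602 genes lower. In LepK against WTK glmTreat called 0 members in either direction, and 2 higher and 3 lower of the genes around the receptors. Over all genes tested it called 1643 higher and 455 lower there. Without a filter the organ difference called 4 members. Beside Egfr they were Egf (0.79, edgeR adjusted p = 0.0111), Hbegf (0.63, edgeR adjusted p = 0.0119) and Erbb4. The value of Erbb4 rests on few lung reads and is not given. All genes called were not counted in the alternative fits of the organ difference, so no share stands beside their counts of members. Deviations of same-numbered libraries correlated at −0.137 to 0.298. They were over 0.1 for 2 of 3 numbers between IgGK and LepK, 1 of 3 in lung and 0 of 3 against WTK, short of every pair, so the numbers were not taken to pair the libraries. With a replicate block, 0 members and 0 genes around the receptors were called in lung, 2 of the latter were called lower in LepK against IgGK, Ereg had −2.50 (edgeR adjusted p = 0.0805), and Areg in LepK against WTK had 2.58 (edgeR adjusted p = 0.0508). Over all genes tested in lung, the replicate block called 1 higher and 3 lower. Relative to distal convoluted tubule genes, Egf differed by −1.36 between IgGK and WTK and by −0.78 between LepK and WTK. Relative to proximal tubule genes it differed by −0.18, 0.45 and 0.27 in the 3 kidney comparisons, the last with its sign turned. Without division by gene length the Egf share differed by −9.07, 6.09, −2.99 and 1.36 percentage points in the 4 comparisons, and the Egfr share by −3.90 between IgGK and WTK and by −4.28 between LepK and WTK. Leaving out 1 library gave 0 to 4 members lower in lung, 0 to 1 higher and 0 to 8 lower of the genes around the receptors in lung, 1 to 2 members higher, and 1 to 2 higher and 0 to 5 lower of those genes, in LepK against IgGK, and 0 to 2 members for the organ difference. Signs turned for Tgfa in LepK against IgGK (range −0.012 to 0.067, with −0.012 without IgGK replicate 1 and −0.0037 without LepK replicate 1), for Areg there (range −1.20 to 0.13, the highest without LepK replicate 2), and for the Egfr share there (range −0.738 to 0.313, the highest without LepK replicate 2). They also turned for the organ difference of Btc (range −0.24 to 0.28, with 0.28 without IgGK replicate 3 and 0.019 without LepL replicate 2) and of Areg (range −0.63 to 0.77, with −0.63 without LepK replicate 1 and −0.0078 without IgGL replicate 3). The cause of these changes was not tested. Few reads limit Areg and Ereg in kidney and Erbb4 in lung.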
